A study of Mus musculus with 4 samples.

Results

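The genes examined here encode the mitochondrial respiratory chain and the ATP synthase. They were chosen by gene symbol (symbols that start with Nduf, Uqcr, Cox4 to Cox8 or Atp5, and Sdha to Sdhd), which found 90 of the 18193 genes named on the arrays. Of these, 42 belong to complex I (8 of them assembly factors), 4 to complex II, 8 to complex III, 19 to complex IV and 17 to complex V. Their transcripts were measured in mouse effector T helper (Th) cells sorted by surface CD30, a receptor of the tumor necrosis factor receptor family, to ask which genes differ between CD30high and CD30low cells. The 4 populations were Th17 CD30high, Th17 CD30low, Th1 CD30high and Th1 CD30low cells, with 1 array each. All came from splenic CD4 T cells cultured for 6 days. Th1 cultures received IL-12 at 100 U/ml, IL-2 at 30 U/ml and an antibody to IL-4 at 1 µg/ml. Th17 cultures received 10 ng/ml each of IL-6, IL-1β and IL-23, with 10 µg/ml each of antibodies to IL-4 and IFN-γ. By the study's methods the T cells carried a transgenic receptor for an ovalbumin peptide (DO11.10 or OTII; which of them was used for the arrays is not given in the sources used here), and irradiated splenocytes without T cells presented the peptide. The sample labels describe the starting cells as CD62Llow for both CD30low populations and as CD62Lhi for both CD30high populations, whereas the methods describe CD62Lhigh cells throughout. If the labels hold, the starting cells and the CD30 gate cannot be told apart.

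Complex I takes electrons from NADH and complex II takes them from succinate. Both pass them through ubiquinone to complex III, cytochrome c and complex IV, which reduces oxygen. Complexes I, III and IV pump protons, and complex V, the ATP synthase, uses the returning protons to make ATP. Activated T cells need this respiration to proliferate, and long-lived memory T cells are known for relying on it.

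The promoters of 4 members are shown because the results turn on them. Cox6b2 and Cox6b1 encode the testis and the ubiquitous form of the same complex IV subunit, and Cox6b2 was the only member past 2-fold in both CD30 comparisons; Atp5md and Ndufa4 had the largest ratios between the lineages among members with signals above 1000. Each sequence runs 5′ to 3′ on the strand of the gene, all on the minus strand, from 250 bases before the gene's start to 50 bases after it, as given by RefSeq for build GRCm38.p6: Cox6b2 at chr7:4753045-4753344, Cox6b1 at chr7:30626065-30626364, Atp5md at chr19:47090598-47090897 and Ndufa4 at chr6:11907401-11907700. Capitals mark matches to CCGGAAG, the core of sites for ETS factors such as GABP, or to TATAAA, on either strand.
Cox6b2: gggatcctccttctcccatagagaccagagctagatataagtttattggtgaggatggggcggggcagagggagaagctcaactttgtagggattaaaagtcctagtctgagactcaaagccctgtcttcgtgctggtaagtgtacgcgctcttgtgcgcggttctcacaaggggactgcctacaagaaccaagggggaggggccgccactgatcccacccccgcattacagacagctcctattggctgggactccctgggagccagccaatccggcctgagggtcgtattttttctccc
Cox6b1: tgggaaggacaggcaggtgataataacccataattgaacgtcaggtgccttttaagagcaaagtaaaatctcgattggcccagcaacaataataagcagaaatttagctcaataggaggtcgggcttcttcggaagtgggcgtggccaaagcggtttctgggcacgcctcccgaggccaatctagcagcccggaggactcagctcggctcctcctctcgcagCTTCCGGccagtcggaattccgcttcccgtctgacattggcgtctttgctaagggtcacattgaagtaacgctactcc
Atp5md: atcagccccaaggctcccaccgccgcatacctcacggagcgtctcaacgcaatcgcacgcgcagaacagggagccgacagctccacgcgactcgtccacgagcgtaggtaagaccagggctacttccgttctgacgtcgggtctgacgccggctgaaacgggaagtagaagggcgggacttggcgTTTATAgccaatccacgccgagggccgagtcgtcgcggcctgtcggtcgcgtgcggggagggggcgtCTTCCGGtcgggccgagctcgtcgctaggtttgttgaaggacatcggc
Ndufa4: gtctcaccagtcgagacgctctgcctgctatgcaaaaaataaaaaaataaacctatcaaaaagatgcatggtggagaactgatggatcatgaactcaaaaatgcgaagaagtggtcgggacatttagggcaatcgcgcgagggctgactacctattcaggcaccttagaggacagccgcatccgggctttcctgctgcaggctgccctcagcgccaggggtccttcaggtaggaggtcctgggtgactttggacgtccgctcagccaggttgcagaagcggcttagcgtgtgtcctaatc
Cox6b1 and Atp5md each held the ETS letters near the start, and Atp5md held TATAAA as well. The windows of Cox6b2 and Ndufa4 held neither, nor ATGGCGG (YY1) or GCNTGCGC (a relaxed form of the NRF-1 site). A match is only a run of letters and was not taken as a binding site.

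Windows of this kind were found for 74 of the 90 members (79 windows), and for 32851 starts in all. GCNTGCGC was in 30.4% of the members' windows and in 9.95% of all windows. CCGGAAG was in 24.1% of the members' windows and in 8.86% of all. ATGGCGG was in 15.2% and 4.05%, and 10 of the 12 member windows that held it were among the 40 of complex I, of 79 in all. These included overlapping windows of Ndufa7, and those of the assembly factors Ndufaf7 and Ndufaf8. TATAAA was in 11.4% and 13.6%. Both strands were searched, and the members' windows thus held all of these letters but TATAAA more often than windows at large.

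The values are linear probe set signals. Each gene was represented by its probe set with the highest mean over the 4 arrays, and any signal below a floor of 100 was raised to 100 for the ratios. A gene counted as measured when it reached 100 on either array of a pair, and as past a fold limit only when the brighter array reached 300. With 1 array per population no difference between populations could be set against a spread between replicates, and no test was made. The only spread available was that among probe sets of 1 gene on the same arrays. Among 39 or 40 members with at least 2 usable probe sets its SD was between 0.086 and 0.159 on the log2 scale, against 0.182 to 0.301 over all genes. It carries no information on differences between cultures. The means without the 2% at either end were between 496.5 and 496.8 on the 4 arrays, a quantity that scaling can fix, whereas the median signals were 64.3 and 62.0 in Th17 CD30high and CD30low cells, against 86.0 and 73.1 in Th1 cells. The T cell markers were above 100 on all arrays (6 of 6 named), Ifng was at 3423 and 2506 in Th1 CD30high and CD30low cells, and Il17a at 14443 and 1398 in Th17 CD30high and CD30low cells. S100a8, a neutrophil marker, was at 1210 and 5192 in Th17 CD30high and CD30low cells, against 7.51 and 2.11 in Th1 cells. The summed signal of the 7 myeloid markers was 2259 and 7571 in Th17 CD30high and CD30low cells, with 5 and 3 of them at 100 or more, and 464 and 310 in Th1 CD30high and CD30low cells, with 1 of them at 100 or more in each. The 5 dendritic cell and 2 erythroid markers were below 100 on all arrays. The 6 T cell markers summed to 28657 in Th17 CD30high, 41987 in Th17 CD30low, 39600 in Th1 CD30high and 47727 in Th1 CD30low cells. The Y-linked Eif2s3y was at 9.39 and 1.41 in Th17 CD30high and CD30low cells, against 1640 and 1784 in Th1 cells, so the lineages also differed in sex-linked transcripts. Of the sex-linked list, which held Xist and Y-linked genes, 4 genes were named. All 4 were at 100 or more in both Th1 populations, and 1 in each Th17 population. In each gate 3 of them were lower by at least 2-fold in Th17 cells. The other was higher, by 0.48 among CD30high and 0.61 among CD30low cells on the log2 scale. The sex of the donor mice is not given in the sources used here. The 5 named NK and CD8 T cell markers summed to 743 and 1013 in Th17 CD30high and CD30low cells, against 7062 and 9345 in Th1 cells. The part of these differences in the ratios between the populations was not tested.

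Of the 90 members, 84 were measured, and 72 reached at least 1000 on all 4 arrays. The 6 members below 100 on every array were Ndufb4, Cox4i2, Cox6a2, Cox7b2, Cox8b and Ndufa4l2. For Ndufb4, a subunit of the membrane arm of complex I, this probe set is not the gene's only one: a probe set that also matches its copies Ndufb4b and Ndufb4c had signals of 3403 and 3729 in Th17 CD30high and CD30low cells and of 3058 and 3650 in Th1 CD30high and CD30low cells. The other 5 are isoforms known mainly from muscle, testis, lung or hypoxic cells. Thus all 4 T helper populations had signal for nearly every subunit of the ubiquitous chain that was named here.

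**Figure D1:**
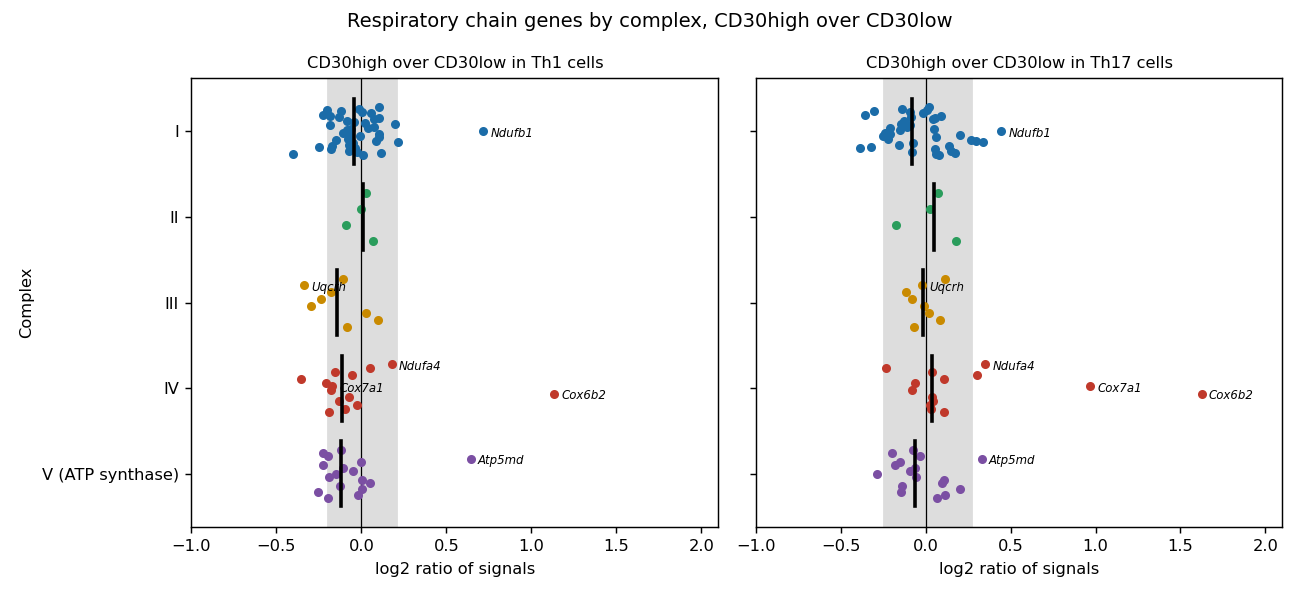
Each point is 1 measured gene, placed by its log2 ratio of CD30high over CD30low signals in Th1 cells (left) and Th17 cells (right), with complexes I to V from top to bottom, assembly factors and tissue isoforms included. Black bars are the medians of the complexes, and the gray band spans the lower to the upper quartile of all genes. Cox6b2 stands apart in both panels, at 1.13 and 1.62, and Cox7a1 only in Th17 cells, at 0.97.

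The chain as a whole differed little between CD30high and CD30low cells. In Th1 cells the median log2 ratio of the 84 measured members was -0.07, with 27 higher and 57 lower in CD30high cells, and the median over all genes was 0.00. Genes of high signal also leaned lower there. The 49 members with a mean of 5000 or more had a median of -0.11, with 22.4% above 0, against -0.05 and 40.3% for all 930 genes of that mean. In Th17 cells it was -0.01, with 41 members higher and 43 lower, and the median over all genes was 0.02; with arrays centred on their medians the members' median in Th17 cells was 0.01. Of the members, 81.0% in Th1 and 72.6% in Th17 cells lay within 0.2 of 0 on the log2 scale, against 49.2% and 40.5% of all genes. Among genes of high signal this gap was narrower in Th1 cells but changed little in Th17 cells. At a mean of 5000 or more the shares were 77.6% and 85.7% of the members, against 65.7% and 56.0% of all genes of that mean. At a mean of 10000 or more they were 87.0% and 91.3%, against 67.1% and 62.8%. The part of signal strength in the gap was not tested.

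Only 1 of 81 members with a signal of at least 300 was past 2-fold in Th1 cells, and it was higher in CD30high cells; of all genes 1.28% were past 2-fold and 0.794% were higher, a share close to that of the members. In Th17 cells it was 1 of 82, also higher, where 7.6% of all genes were past 2-fold and 3.94% were higher. At 1.5-fold, 3 members in Th1 cells and 2 in Th17 cells were past the limit, all of them higher in CD30high cells, beside 7.62% and 18.6% of all genes in either direction and 4.04% and 9.52% higher. These members were Cox6b2 in both lineages, Ndufb1 and Atp5md in Th1 cells and Cox7a1 in Th17 cells. No member was lower by 1.5-fold in CD30high cells of either lineage, where 3.57% of all genes in Th1 and 9.12% in Th17 cells were.

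Cox6b2 had signals of 500 in Th1 CD30high and 228 in Th1 CD30low cells, and of 400 in Th17 CD30high and 130 in Th17 CD30low cells. Both CD30high populations were thus above both CD30low populations. The log2 ratio was 1.13 in Th1 cells (2.20-fold) and 1.62 in Th17 cells (3.08-fold), and it kept at least 1.11 and 1.60 when the arrays were centred or quantile normalized. Its only probe set thus stayed close to the limits used, and with a floor of 200 in place of 100 the ratio in Th17 cells no longer reached 2-fold. Cox6b1, the ubiquitous counterpart, had signals of 17560 in Th1 CD30high and 18492 in Th1 CD30low cells, and of 19840 in Th17 CD30high and 19312 in Th17 CD30low cells. Its ratios of -0.07 and 0.04 were within the spread among probe sets.

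Cox7a1, the heart and muscle form of subunit 7a, had a signal of 403 in Th17 CD30high cells, against 205 in Th17 CD30low cells, with 142 in Th1 CD30high and 160 in Th1 CD30low cells. Th17 CD30high cells alone stood above the other 3 populations. The log2 ratio was 0.97 in Th17 cells and -0.17 in Th1 cells. The 5 muscle markers summed to 261 in Th17 CD30high and 208 in Th17 CD30low cells, and to 390 in Th1 CD30high and 235 in Th1 CD30low cells. The highest of them was Ckm in Th1 CD30high cells, at 165. The ubiquitous form Cox7a2 had signals of 22393 in Th17 CD30high and 23402 in Th17 CD30low cells, and 20018 in Th1 CD30high and 23115 in Th1 CD30low cells, with log2 ratios of -0.06 in Th17 and -0.21 in Th1 cells. Cox6a1, whose muscle form Cox6a2 was below 100, had CD30 ratios of -0.13 in Th1 and 0.04 in Th17 cells, and Cox8a ones of -0.15 and 0.04. Cox8c, the testis form of subunit 8, was at 296 in Th1 CD30high and 286 in Th1 CD30low cells, and at 207 and 243 in Th17 CD30high and CD30low cells.

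Ndufb1, an accessory subunit of the membrane arm of complex I, was at 302 in Th1 CD30high and 184 in Th1 CD30low cells, and at 436 in Th17 CD30high and 320 in Th17 CD30low cells. It was higher in CD30high cells of both lineages, by 0.72 and 0.44 on the log2 scale. Its brighter Th1 array was just above the limit of 300, and under median centring or quantile normalization it no longer met that limit. Atp5md, a small membrane subunit of the ATP synthase known for its part in holding dimers of the enzyme together, was at 4537 in Th1 CD30high and 2903 in Th1 CD30low cells, and at 9090 in Th17 CD30high and 7226 in Th17 CD30low cells. Its log2 ratios were 0.64 and 0.33. In the reference annotation the gene overlaps Taf5, and which transcript the probe set reads was not tested.

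By complex, the subunits of complex IV were lower in Th1 CD30high cells in 10 of 11 cases (median log2 ratio -0.13), those of complex V in 13 of 17 (-0.12) and those of complex III in 6 of 8 (-0.14), and under quantile normalization the counts were 7 of 11, 11 of 17 and 6 of 8, with medians of -0.09, -0.06 and -0.11. Complex I subunits had a median of -0.05 (20 of 33 lower) and the 4 of complex II one of 0.01. In Th17 cells complex IV was on the other side, with 9 of 11 subunits higher in CD30high cells, but by a median of 0.04 only. The medians of complexes I, II, III and V were then -0.08, 0.05, -0.02 and -0.06, and that of complex III was 0.01 after centring.

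The members with the lowest CD30 ratios were not the same in the lineages. In Th1 cells they were Ndufa10, an accessory subunit of complex I, with signals of 5451 in CD30high and 7195 in CD30low cells (-0.40), and Cox7a2l, a factor that joins complexes III and IV, with 9016 and 11538 (-0.36). Uqcrh, the hinge protein of complex III that binds cytochrome c1, followed with 15064 and 19047 (-0.34), and its second probe set had a ratio of -0.41. In Th17 cells Ndufa10 was at 5871 in CD30high and 5625 in CD30low cells, Cox7a2l at 8685 and 8042, and Uqcrh at 11800 and 11979, so none of the 3 was lower by as much as the spread among probe sets. The lowest ratios there were those of Ndufa5, an accessory subunit of the peripheral arm (2320 and 3037, -0.39), and Ndufs4, which is mutated in a form of Leigh syndrome in humans (2532 and 3236, -0.35). Ndufs4 was at 2498 in Th1 CD30high and 2919 in Th1 CD30low cells (-0.22).

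Other members at the ends of their complexes differed by less. Ndufab1, the mitochondrial acyl carrier protein, was at 4890 in Th1 CD30high and 4211 in Th1 CD30low cells, and at 6633 in Th17 CD30high and 5249 in Th17 CD30low cells, which made it the second highest of complex I in both lineages (0.22 and 0.34). Ndufa6 was at 7298 and 8691 in Th1, and at 5549 and 6930 in Th17 CD30high and CD30low cells (-0.25 and -0.32). These genes thus had CD30 ratios of 1 sign in both lineages.

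In complex III the highest CD30 ratios were those of the small subunits Uqcr11, at 4309 in Th1 CD30high and 4028 in Th1 CD30low cells (0.10), and Uqcrq, at 4887 in Th17 CD30high and 4523 in Th17 CD30low cells (0.11). The core protein Uqcrc1 was at 3403 in Th1 CD30high and 4181 in Th1 CD30low cells (-0.30), with 3382 and 3407 in Th17 cells (-0.01). In complex IV, Cox6c was at 17188 in Th17 CD30high and 18202 in Th17 CD30low cells (-0.08), the lowest ratio among its subunits there. All of these lay within the quartiles of all genes, but for Uqcrc1 in Th1 cells.

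In the ATP synthase, Atp5c1, the central shaft that turns inside the F1 head, was at 18223 in Th1 CD30high and 21722 in Th1 CD30low cells, and at 15871 in Th17 CD30high and 17551 in Th17 CD30low cells (-0.25 and -0.15). Atp5o, which links the head to the stator stalk, was at 8198 and 9573 in Th1, and at 8322 and 9561 in Th17 CD30high and CD30low cells (-0.22 and -0.20). Atp5h, another part of the stalk, was at 20057 and 22286 in Th1, and at 17860 and 21764 in Th17 CD30high and CD30low cells (-0.15 and -0.29). The 4 genes of the stalk were lower in CD30high cells of both lineages, with medians of -0.14 and -0.15. They were so after centring and quantile normalization too, although the median in Th1 cells was only -0.06 with quantile normalization. Of the 5 genes of the membrane part 4 were lower in each lineage as well, with medians of -0.11 in Th1 and -0.06 in Th17 cells. Atp5d, of the F1 head, was at 13426 in Th1 CD30high and 13368 in Th1 CD30low cells (0.01), and at 13415 in Th17 CD30high and 11673 in Th17 CD30low cells (0.20).

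Across the 84 members, the CD30 ratios of the lineages had a Pearson's r of 0.59 and a Spearman's rho of 0.26, where all genes had 0.38 and 0.30. By rank the members were thus no more alike than genes at large. Pearson's r also includes Cox6b2, the highest member in both lineages at 1.13 and 1.62, and was not computed without it. These coefficients are descriptions across genes, which are not independent replicates. The pairs of arrays share no population. Of the members, 19 were higher in CD30high cells in both lineages, 35 were lower in both and 30 were on opposite sides. Of 9509 genes measured in both comparisons, 2816 were higher in both, 2819 were lower in both and 3874 were on opposite sides.

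**Figure D2:**
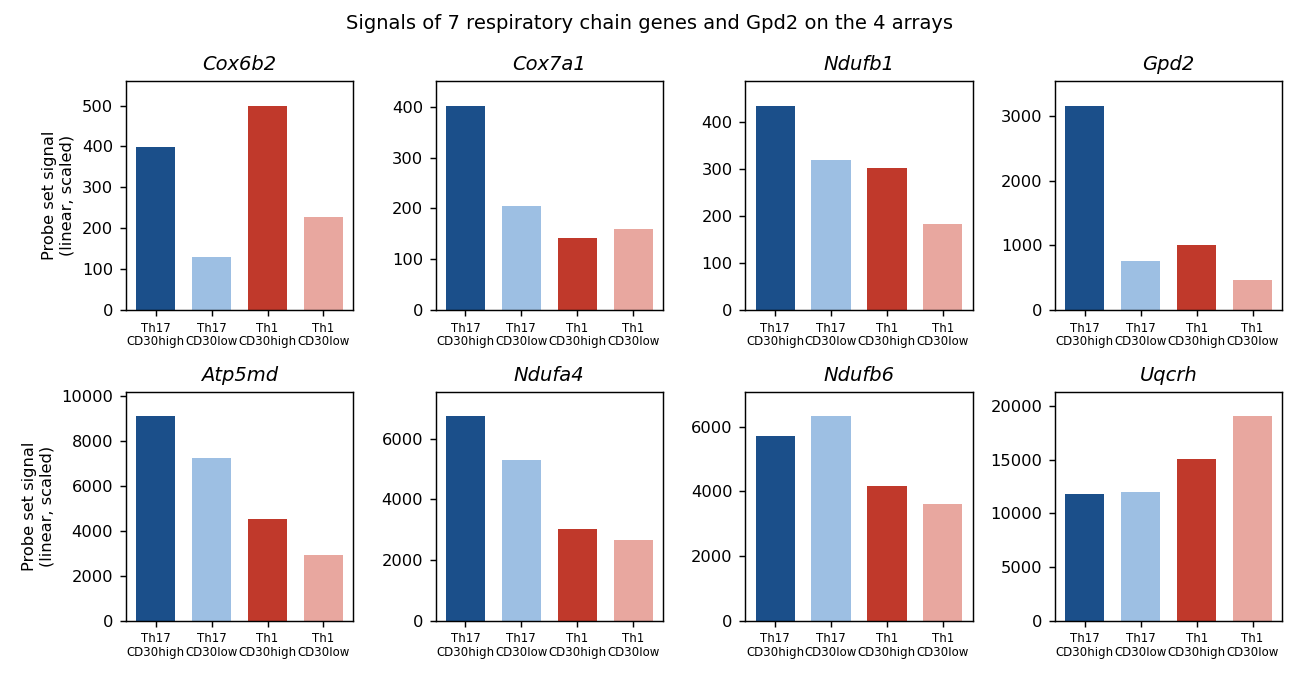
Bars give the linear signal of the brightest probe set of 7 members and of Gpd2 on each array, from left to right Th17 CD30high, Th17 CD30low, Th1 CD30high and Th1 CD30low cells, with 1 array each and hence no error bars. Cox6b2 and Gpd2 are higher in the CD30high population of each lineage, and Atp5md, Ndufa4 and Ndufb6 are higher in both Th17 populations than in either Th1 population, with Uqcrh lower.

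The members were spread more widely between the lineages than between the CD30 gates. Of them, 53.6% among CD30high and 39.3% among CD30low cells lay within 0.2 of 0 on the log2 scale, against 30.8% and 33.3% of all genes. At a mean of 5000 or more the shares were 67.3% and 44.9% of the members, against 35.9% and 35.1% of all genes of that mean. Among CD30high cells the median log2 ratio of Th17 over Th1 was 0.08, with 56 of 84 members higher in Th17 cells, and among CD30low cells it was 0.06, with 47 of 84 higher. The medians over all genes were -0.01 and -0.02. Among CD30low cells the median depended on the setting, at 0.00 with 31 higher and 31 lower when only probe sets ending in _at were used, and at 0.13 with 58 of 84 higher under quantile normalization. At 2-fold, 3 of 82 members were past the limit among CD30high cells and 1 of 80 among CD30low cells, all higher in Th17 cells, where 11.8% and 9.35% of all genes were past it in either direction and 4.98% and 3.53% were higher. At 1.5-fold there were 5 members among CD30high cells, all higher in Th17 cells, and 6 among CD30low cells, 5 of them higher and 1 lower. Of all genes, 28.4% and 25% were past 1.5-fold in either direction, with 13.6% and 11.7% higher and 14.9% and 13.3% lower. At 1.5-fold the members past the limit were thus 6.1% and 7.5%, fewer than among genes at large. At 2-fold the 3 members higher in Th17 cells among CD30high cells made a share close to that of all genes that were higher.

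With the signals as deposited the direction differed between complexes, but this depended on the scaling. Under quantile normalization every complex had a median above 0 among CD30high cells, with 0.13 for both complex I and complex IV. Among CD30low cells only that of complex III, at -0.05, was then below 0. Of the 33 measured subunits of complex I, 27 among CD30high and 25 among CD30low cells were higher in Th17 cells, with medians of 0.14 and 0.21, and 24 were higher in both. Complex II had medians of 0.29 and 0.26, with Sdha, Sdhb and Sdhc higher and Sdhd lower in both gates. Complex III was split, with 4 subunits higher and 4 lower in both gates (5 and 3 among CD30high cells after centring) and medians of 0.07 and -0.07. Complex IV had medians of -0.02 and -0.21, which turned to 0.13 and 0.10 under quantile normalization, and to 0.01 among CD30high cells after centring. Complex V had medians of 0.02 and -0.03, which became 0.11 and 0.10 under quantile normalization, and the first became -0.09 with the mean of the probe sets that reached 300 in place of the brightest one. The medians of complexes I and II were above 0 under each of these settings, but with the mean of the probe sets that reached 300 those among CD30low cells fell to 0.09 for complex I and 0.18 for complex II.

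For 371 genes whose mean signal was 10000 or more, the median log2 ratio of Th17 over Th1 was -0.16 among CD30high and -0.20 among CD30low cells. The 23 members above that mean had medians of 0.03 and -0.08, both above the medians of those 371 genes. At a mean of 1000 or more the gap was small, with 0.08 and 0.07 for the 75 members and 0.06 and 0.04 for all 4296 genes. The part of signal strength in the order of the complexes was not tested.

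**Figure D3:**
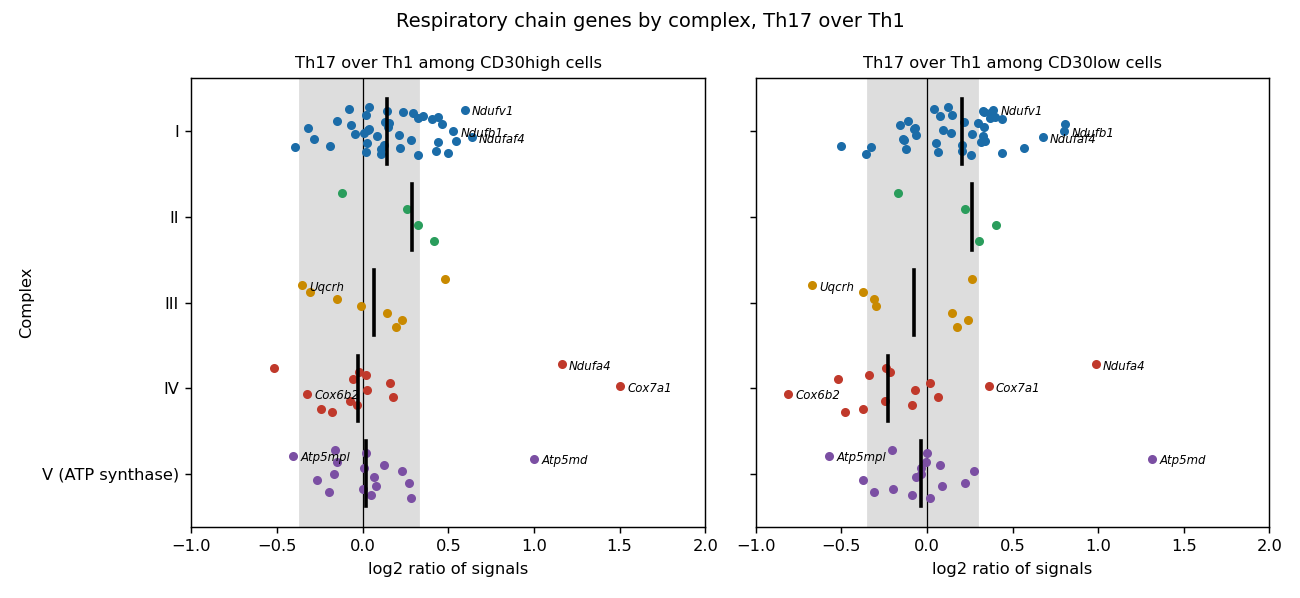
Each point is 1 measured gene, placed by its log2 ratio of Th17 over Th1 signals among CD30high cells (left) and CD30low cells (right), by complex as in the plot of the CD30 ratios, with black bars for medians and a gray band for the quartiles of all genes. The points of complex I lie mostly right of 0 in both panels, and Ndufa4 and Atp5md lie near or past 1 in both.

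Ndufa4 and Atp5md were about 2-fold higher in Th17 cells in both gates. Ndufa4, once assigned to complex I and now known as a subunit of complex IV, had signals of 6748 in Th17 CD30high and 5288 in Th17 CD30low cells, against 3019 in Th1 CD30high and 2669 in Th1 CD30low cells. The log2 ratio was 1.16 among CD30high and 0.99 among CD30low cells. Atp5md was at 9090 and 7226 in Th17 CD30high and CD30low cells, against 4537 and 2903 in Th1 cells, which gave 1.00 and 1.32. For each gene both Th17 populations were above both Th1 populations, and each was read by 1 probe set. Quantile normalization took Atp5md among CD30high cells to 0.98, just under 2-fold. Atp5mpl, the other small membrane subunit of this kind, was on the other side, at 5324 and 5446 in Th17 CD30high and CD30low cells, against 7061 and 8080 in Th1 cells (-0.41 and -0.57).

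Cox7a1 had the highest ratio between the lineages among CD30high cells, at 1.5, and one of 0.36 among CD30low cells, from the signals given above. Cox6b2 ran the other way, with -0.32 among CD30high and -0.81 among CD30low cells, where its signals of 130 in Th17 and 228 in Th1 cells were below the limit of 300.

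Within complex I the higher ratios were found in both arms. Of the peripheral arm, which holds the sites for NADH oxidation, 11 of 14 subunits among CD30high and 12 of 14 among CD30low cells were higher in Th17 cells, with medians of 0.18 and 0.18. Of the membrane arm, which pumps protons, 15 of 18 and 12 of 18 were higher, with medians of 0.13 and 0.21. Ndufv1, the core subunit that binds NADH, was at 3409 and 3394 in Th17 CD30high and CD30low cells, against 2256 and 2592 in Th1 cells (0.60 and 0.39). Its other probe sets gave 0.48 and 0.30 among CD30high cells. Ndufs1, the largest core subunit, was at 2858 and 3037 in Th17 cells of the 2 gates, against 2107 and 2306 in Th1 cells (0.44 and 0.40). Both core subunits were thus higher in each Th17 population than in either Th1 population.

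Ndufb6, an accessory subunit of the membrane arm, was at 5710 and 6320 in Th17 CD30high and CD30low cells, against 4150 and 3615 in Th1 cells (0.46 and 0.81). Its other probe set gave 0.45 and 0.41, so the second value depends on the probe set. Ndufb1 had ratios of 0.53 and 0.80. The assembly factor Ndufaf4 was at 1576 and 1512 in Th17 CD30high and CD30low cells, against 1014 and 945 in Th1 cells (0.64 and 0.68), and its other probe set gave 0.42 and 0.77. Over the 8 assembly factors the medians were 0.15 and 0.20. Ndufa6 and Ndufa7, accessory subunits of the peripheral arm, had the lowest ratios of complex I in the mean of both gates. Ndufa6 was at 5549 and 6930 in Th17 CD30high and CD30low cells, against 7298 and 8691 in Th1 cells (-0.40 and -0.33). Ndufa7 was at 6352 and 5778, against 7241 and 8176 (-0.19 and -0.50).

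The X-linked members are Ndufa1 and Ndufb11. Ndufa1, of the membrane arm, was at 19831 and 18765 in Th17 CD30high and CD30low cells, against 15825 and 15708 in Th1 cells (0.33 and 0.26). Ndufb11, of the same arm, was at 14528 and 14017, against 14165 and 14784 (0.04 and -0.08). They lay within the range of the autosomal members.

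In complex II, Sdha, the flavoprotein that oxidizes succinate, was at 4676 and 4133 in Th17 CD30high and CD30low cells, against 3505 and 3347 in Th1 cells (0.42 and 0.30). Sdhb, the iron-sulfur subunit, was at 7377 and 8324, against 5907 and 6301 (0.32 and 0.40). For both genes each Th17 population was above each Th1 population. The membrane anchors differed: Sdhc was at 1167 and 1145, against 977 and 980 (0.26 and 0.22), and Sdhd at 3719 and 3538, against 4048 and 3972 (-0.12 and -0.17). A second, dimmer probe set of Sdhd was also lower in Th17 cells in both gates, and by more among CD30high cells. Its signals are given further on.

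In complex III the 3 core subunits among the members were lower in Th17 cells in both gates. After centring, however, 1 of them was higher among CD30high cells. Uqcrc1 was at 3382 and 3407 in Th17 CD30high and CD30low cells, against 3403 and 4181 in Th1 cells (-0.01 and -0.30). Uqcrc2, the other core protein, was at 8674 and 9169, against 9641 and 11364 (-0.15 and -0.31). Uqcrfs1, the Rieske iron-sulfur protein, was at 5721 and 6184, against 7079 and 8020 (-0.31 and -0.37). Cytochrome c1 (Cyc1), a core subunit of complex III outside the symbol rule, ran the other way. It was at 5061 and 5273 in Th17 CD30high and CD30low cells, against 3930 and 4353 in Th1 cells (1.29-fold and 1.21-fold higher). The accessory subunits went both ways. Uqcrh was at 11800 and 11979 in Th17 cells of the 2 gates, against 15064 and 19047 in Th1 cells (-0.35 and -0.67), and was the only member lower by 1.5-fold with a signal of at least 300 in any comparison. Its other probe set gave -0.31 and -0.69, and under quantile normalization the second value was -0.52, short of 1.5-fold. Uqcrq, by contrast, was at 4887 and 4523 in Th17 cells, against 3504 and 3775 in Th1 cells (0.48 and 0.26).

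In complex IV, Cox4i1, the ubiquitous form of subunit 4, was at 18086 and 16761 in Th17 CD30high and CD30low cells, against 20454 and 23386 in Th1 cells (-0.18 and -0.48). Cox5a was at 22478 and 21968, against 26627 and 28487 (-0.24 and -0.37). Each was lower in both Th17 populations than in either Th1 population. Of the ATP synthase, the catalytic subunit Atp5b was at 16054 and 14807 in Th17 CD30high and CD30low cells, against 15521 and 15753 in Th1 cells (0.05 and -0.09). The 3 genes for the same c subunit of the rotor differed: Atp5g1 was at 3572 and 3336, against 2962 and 2858 (0.27 and 0.22), Atp5g2 at 7490 and 6946, against 9023 and 9001 (-0.27 and -0.37), and Atp5g3 at 21760 and 22652, against 20753 and 23638 (0.07 and -0.06). The mature proteins of these genes are identical, and their lineage ratios ran in different directions.

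**Figure D4:**
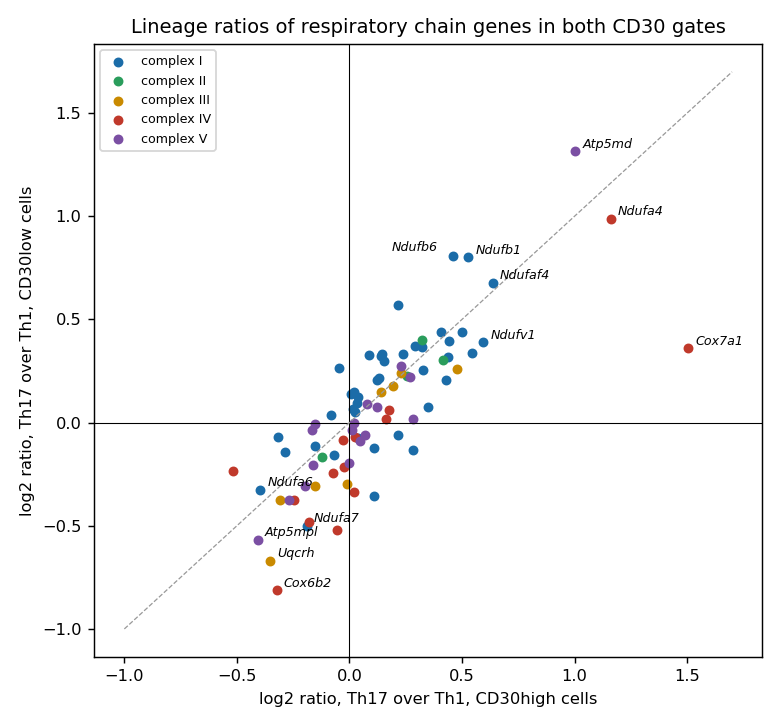
Each point is 1 of the 84 measured members, colored by complex, with the log2 ratio of Th17 over Th1 among CD30high cells on the horizontal axis and among CD30low cells on the vertical axis. The dashed line marks equal ratios. Most points lie along it, with Cox7a1 well below it at 1.5 and 0.36.

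The lineage ratios of the members were alike in the 2 gates, which share no array. The gates of a lineage may have been sorted from 1 culture, and a difference between cultures would then enter both ratios. Pearson's r across the 84 members was 0.79 and Spearman's rho 0.85, against 0.69 and 0.61 over all genes. Both ratios were positive for 45 members and both negative for 26, with 13 on opposite sides. Of 9735 genes measured in both gates, 3439 had both ratios positive, 3618 both negative and 2678 opposite signs. Largest was the gap between gates for Cox7a1.

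Genes outside the symbol rule also feed electrons into ubiquinone. Of these, Gpd2, the mitochondrial glycerol-3-phosphate dehydrogenase, was at 1012 in Th1 CD30high and 462 in Th1 CD30low cells, and at 3167 in Th17 CD30high and 762 in Th17 CD30low cells. Each CD30high population was above both CD30low populations. The ratio of CD30high over CD30low was 2.19 in Th1 and 4.16 in Th17 cells. Another probe set of Gpd2 was at 600 and 292 in Th1, and at 1988 and 407 in Th17 CD30high and CD30low cells. Sqor, which passes electrons from sulfide to ubiquinone, was at 249 in Th17 CD30high and 585 in Th17 CD30low cells, with 581 and 612 in Th1 CD30high and CD30low cells. Of the 7 genes on this list 6 were measured, and Gpd2 and Sqor were the only ones past 2-fold in a CD30 comparison. These were 1 of 6 in Th1 and 2 of 6 in Th17 cells, where 1.28% and 7.6% of all genes were past 2-fold.

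Of 12 genes for ubiquinone synthesis, 11 of 12 measured were higher in Th17 CD30high than in Th17 CD30low cells, with a median of 0.34, and 7 of 11 in Th1 cells, with a median of 0.09. Coq4, of this pathway, was the only one past 2-fold for CD30, at 343 in Th17 CD30high and 168 in Th17 CD30low cells. That was 1 of 10 genes of the list that reached 300 in Th17 cells, where 7.6% of all genes were past 2-fold. Coq4 was below 100 in both Th1 populations. Coq8a, a kinase-like protein of the same pathway, was at 229 and 163 in Th17 CD30high and CD30low cells, against 239 and 345 in Th1 cells. Of 44 further assembly factors of the complexes, 42 were measured. Their medians were -0.07 in Th1 and 0.10 in Th17 cells for CD30, and 0.24 among CD30high and 0.08 among CD30low cells for the lineage. Sco1, which delivers copper to complex IV, was the only one past 2-fold for CD30, at 593 in Th17 CD30high and 234 in Th17 CD30low cells, with 235 and 199 in Th1 cells. That was 1 of 39 of these factors that reached 300 in Th17 cells, where 7.6% of all genes were past 2-fold. Sdhaf1, which helps to insert iron-sulfur clusters into complex II, was at 718 and 731 in Th17 CD30high and CD30low cells, against 361 and 304 in Th1 cells (0.99 and 1.27).

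The tricarboxylic acid cycle and pyruvate dehydrogenase list had 20 of 22 genes measured, none of them past 2-fold in any comparison, with lineage medians of 0.25 among CD30high and 0.07 among CD30low cells. Of the 19 regulators of mitochondrial biogenesis, 17 were measured, and Ppargc1a was below 100 on every array. Myc, a transcription factor of growth, was at 6030 and 4539 in Th17 CD30high and CD30low cells, against 3323 and 2212 in Th1 cells (0.86 and 1.04). Esrra, the estrogen-related receptor alpha, was at 263 and 291, against 534 and 498 (-1.02 and -0.78). The lineage medians of the 17 genes were 0.16 and 0.15, with 10 and 12 of them higher in Th17 cells, where 48.8% and 47.9% of all genes were. Of the 7 mitochondrial antioxidant enzymes, Txnrd2, a thioredoxin reductase, was at 357 and 177 in Th17 CD30high and CD30low cells, against 127 and 229 in Th1 cells, so its CD30 ratios had opposite signs, 1.01 in Th17 and -0.86 in Th1 cells. Its substrate Txn2 was at 1020 and 862, against 463 and 634.

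Of the genes encoded by mitochondrial DNA, only ND5, a core subunit of the membrane arm of complex I, was named in the annotation used here. It was at 16718 and 19381 in Th17 CD30high and CD30low cells, against 25696 and 22871 in Th1 cells (-0.62 and -0.24). Both Th17 populations were below both Th1 populations, the reverse of the median of the nuclear subunits of the same complex. ND5 was above 10000 on every array, however, and genes with a mean of 10000 or more leaned lower in Th17 cells at large. Their medians were -0.16 among CD30high and -0.20 among CD30low cells. The part of signal strength in this contrast was not tested. Cytochrome c (Cycs) was at 19166 and 21735, against 21685 and 18235, with no common direction. Of its other probe sets, 1 was at 8897 and 9921, against 8428 and 7583, and another at 4986 and 5333, against 3940 and 3558, both higher in Th17 cells in each gate.

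Among other large machines of the cell, the 47 measured genes of the mitochondrial ribosome had lineage medians of 0.16 among CD30high and 0.01 among CD30low cells. The 47 measured genes of the proteasome had 0.33 and 0.28, and those of the cytosolic ribosome -0.34 and -0.48 (25 and 24 genes). In the proteasome, Psmb7 was at 1930 and 1992 in Th17 CD30high and CD30low cells, against 716 and 794 in Th1 cells. The medians of the respiratory chain lay between those of the last pair. In the CD30 comparisons the medians of these lists were between -0.08 and 0.07.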

How the data were processed

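Total RNA of 4 sorted populations was labeled with biotin and hybridized to 1 Affymetrix whole-genome mouse array each. The deposited intensity values are probe set signals on a linear scale. The submitters' processing notes credit them to Affymetrix Expression Console, and the methods to GeneChip Operating Software. The summary algorithm and scaling target are not given in the sources used here. Scaling to a common level hides any change shared by most genes. The table held 45037 probe sets: 34945 with 1 gene symbol, 932 with several and 9160 unnamed here. Symbols were updated through gene identifiers to a RefSeq table, which matched 34741.

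For each of 18193 genes the brightest probe set by the mean of the 4 arrays was used, and log2 ratios were taken with a floor of 100. The limits were 2-fold and 1.5-fold with at least 300 in the brighter array. Groups were taken from the sample titles. With 1 array per group no p-value was computed. The scripts were tested on simulated data. The number of arrays limits the precision. The members, lists and rules were chosen with earlier results of these data known. Values were given for members past a limit, for the highest and lowest of each complex, for isoform pairs and X-linked members, and for genes of other lists past 2-fold, with few named among cell type markers and ribosomal genes. Alternatives were median centring, quantile normalization, other floors and signal limits, the mean of all probe sets, and probe sets ending in _at only. Promoter letters were searched in RefSeq windows of build GRCm38.p6. The software was pandas 2.3.3 and numpy 2.4.6 under Python 3.11.15, with matplotlib 3.10.9 for plots.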

Additional observations from a re-analysis of the deposited data

Results flagged for a closer look

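A second probe set of Sdhd, a membrane anchor of complex II, was not used above because it is the dimmer of the pair. It was at 1232 in Th1 CD30high and 780 in Th1 CD30low cells, a ratio of 1.58, whereas the probe set that was used had 4048 and 3972, a ratio of 1.02. Its signals in Th17 CD30high and CD30low cells were 651 and 707, below those of both Th1 populations. It was singled out as a signal past 1.5-fold in data outside the main measurement, and its cause was not tested.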

How the results depend on the processing

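Of 120 planned recalculations 112 stayed within the tolerance used, which was 1.5 times for a count of members and, for a median, the SD among probe sets of a member in that comparison (0.086 to 0.159). These SDs are wide for medians over many genes. All 40 medians were within them, and ranged from -0.08 to -0.04 for CD30 in Th1 cells, from -0.04 to 0.01 for CD30 in Th17 cells (above 0 only with centring), and from 0.05 to 0.13 and from 0.00 to 0.13 for the lineage among CD30high and CD30low cells. The other 8 were counts of members. With a floor of 200, members past 2-fold for CD30 in Th17 cells were 0, because Cox6b2 then fell short. With a signal limit of 1000, members past 2-fold were 0 in Th1 and 0 in Th17 cells, and past 1.5-fold 1 in Th1 and 0 in Th17 cells; Cox6b2, Cox7a1 and Ndufb1 never reached that limit. With the mean of all probe sets, 2 members were past 2-fold for CD30 in Th1 cells (Cox6b2 and Ndufa10), 4 past 1.5-fold for CD30 in Th17 cells (Ndufb2 and Ndufb9 lower) and 2 past 2-fold for the lineage among CD30low cells (Atp5md and Ndufa10). The second probe set of Ndufa10 read 57.3 and 10.1 in Th1 CD30high and CD30low cells, below the limit for a measured signal. Medians by complex under other scalings, given above, were added after the data were seen. No test of any kind, paired or not, was run, since each group had 1 array. Signals of Cox6b2, Cox7a1 and Ndufb1 were low on every array, near the limits used.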
